A study of Arabidopsis thaliana with 6 samples.

Results

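The ATG8 genes of Arabidopsis thaliana were followed in dry seeds of 2 genotypes, wild-type Col and hda9-1, a T-DNA insertion mutant of HDA9, the gene of histone deacetylase 9, an enzyme that strips acetyl marks from histones. The genes were chosen by name: every probe set that the array's annotation pairs with a single gene whose symbol starts with ATG8. This gave 7 genes, ATG8B to ATG8H, each with 1 probe set, out of 13355 genes and 22746 probe sets on the array. ATG8A and ATG8I, the other genes of the family, are listed there as APG8A and APG8H and are described with the rest of the pathway. The family was put forward because ATG8B and ATG8E differed between the genotypes in earlier work on these data, so the differences between genotypes of the 7 genes are a description and no p-value is given for them.

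Each genotype was represented by 3 biological replicates, and every one of the 6 RNA samples had a separate Affymetrix ATH1 array. Seeds were taken from ripe siliques aged 18 to 19 days from pollination and pooled from at least 5 plants per replicate. The plants grew on soil in long days, with 16 h of light (22 °C) and 8 h of darkness (16 °C). No further genotype, treatment or age was compared, and the mutant is a single insertion allele. The tissue is dry seeds in the sample labels and dry siliques in the design text. Expression is given as the deposited log2 value of a probe set, so a difference of 1 is a doubling, and levels of different probe sets are not set against each other. Differences are hda9-1 minus Col, with the standard error (SE) of a limma fit across all probe sets, and a probe set is called where its p, adjusted over all 22746, is under 0.05. The number of arrays limits the precision.

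ATG8 proteins are small ubiquitin-like proteins that are attached to the lipid phosphatidylethanolamine on the growing autophagosome, the membrane sac that carries cytoplasm and organelles to the vacuole for breakdown. The protease ATG4 trims the tail of newly made ATG8, ATG7 and ATG3 activate and transfer it, and a complex of ATG5, ATG12 and ATG16 directs it to the membrane, where it also holds cargo receptors. Plants carry many ATG8 genes. ATG8A to ATG8D and ATG8E to ATG8G form related groups, and ATG8H and ATG8I a more distant group whose proteins already end on the glycine that is joined to the lipid. In seedlings HDA9 has been reported to act with the light signalling factor HY5 in repressing ATG5 and ATG8E, and autophagy is known to matter for nutrient recycling during seed filling.

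The family was split in the mutant. ATG8B and ATG8F were higher in all 3 hda9-1 arrays than in any Col array, ATG8E and ATG8H were lower in all 3, and the arrays of ATG8C, ATG8D and ATG8G overlapped. Thus 4 of the 7 genes had groups that did not overlap, as had 23.8% of all probe sets tested. Of these genes 2 were higher and 2 lower, beside 11.6% and 12.1% of all probe sets. Among the probe sets called in the limma fit were ATG8B (higher) and ATG8E (lower), 2 of 7 genes, where 3.82% of all probe sets were called in either direction, 1.37% higher and 2.45% lower. With the replicate number as a block 1 of the 7, ATG8B, was called, beside 6.39% of all probe sets. These calls restate the values by which the family was put forward, so they are no evidence of a difference and nothing is read from these counts. The median change of the 7 genes was 0.00 and their mean change 0.01, beside a median of −0.00 over all probe sets.

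Within the group of ATG8A to ATG8D, ATG8B was the gene that separated the genotypes. Its values were 9.30, 9.27 and 9.20 in Col replicates 1 to 3 and 9.75, 9.62 and 9.69 in hda9-1 replicates 1 to 3. The lowest mutant array was above the highest Col array, and the spread within each genotype was small (SD 0.05 in Col and 0.06 in hda9-1, n = 3 each). The difference was 0.43 (SE 0.09), or 1.35-fold higher in hda9-1. In the fits that left out 1 array it lay between 0.40 and 0.46.

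ATG8C and ATG8D showed no separation. ATG8C read 10.00, 10.04 and 9.52 in Col and 9.81, 9.97 and 9.76 in hda9-1, a difference of −0.01 (SE 0.15). ATG8D read 9.30, 9.34 and 8.98 in Col and 9.33, 9.26 and 9.04 in hda9-1, a difference of 0.00 (SE 0.13). For both genes the lowest of the 6 values was that of Col replicate 3, and the mutant arrays fell inside the range of the Col arrays. Without Col replicate 3 the changes were −0.17 for ATG8C and −0.11 for ATG8D, so the values near 0 rested in part on that array.

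**Figure D1:**
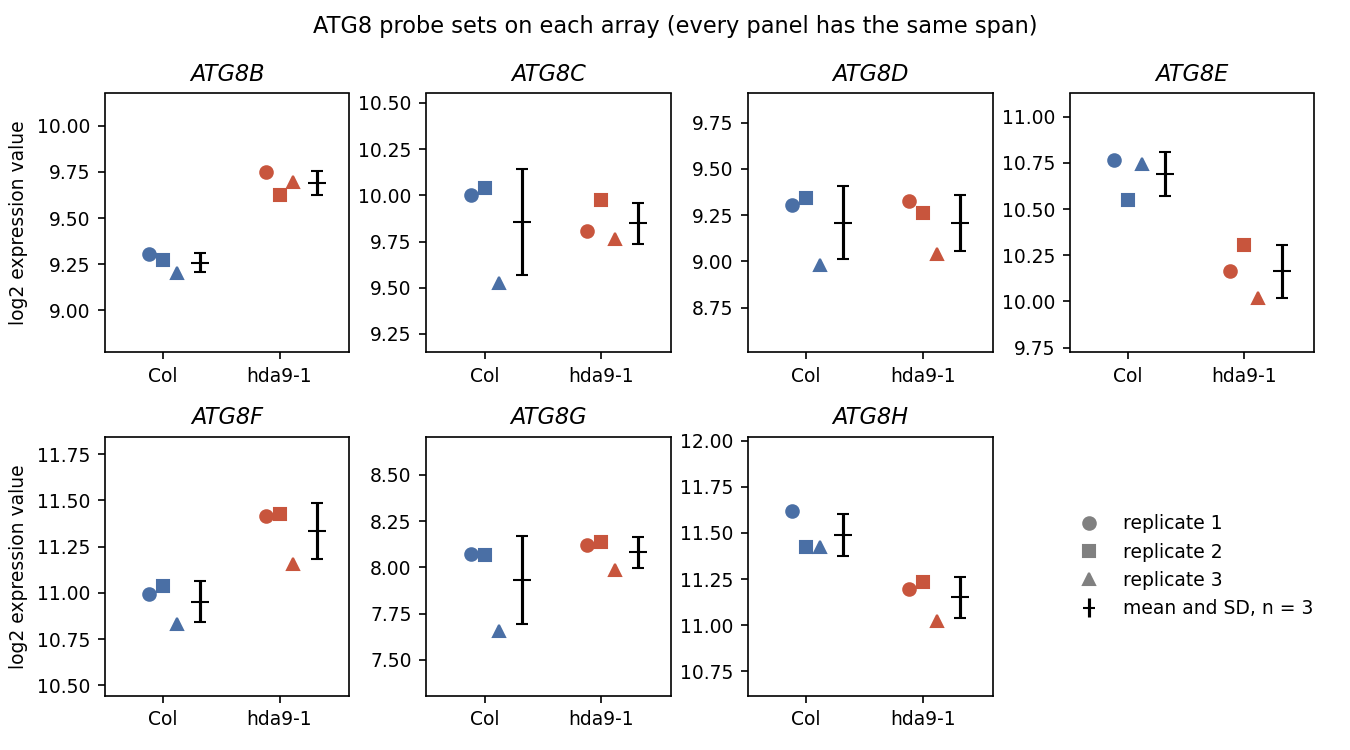
Log2 expression value of each ATG8 probe set on each array, Col in blue and hda9-1 in red, with symbols for the replicate number and bars for the mean and SD (n = 3); every panel has the same span. The hda9-1 points lie above all Col points for ATG8B and ATG8F and below all of them for ATG8E and ATG8H, and the groups overlap for ATG8C, ATG8D and ATG8G.

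The group of ATG8E to ATG8G held changes of both signs. ATG8E read 10.77, 10.55 and 10.74 in Col and 10.17, 10.31 and 10.02 in hda9-1. All mutant arrays were below all Col arrays, with means of 10.69 ± 0.12 in Col and 10.16 ± 0.14 in hda9-1 (SD, n = 3 each). The difference was −0.52 (SE 0.11), a level 1.44-fold higher in Col than in the mutant and the widest difference of the 7 genes. It ranged from −0.59 to −0.45 in the fits without 1 array.

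ATG8F moved the other way. It read 10.99, 11.03 and 10.83 in Col and 11.42, 11.43 and 11.16 in hda9-1, with no overlap, although hda9-1 replicate 3 came close to the Col arrays. The difference was 0.38 (SE 0.11), or 1.30-fold higher in hda9-1. ATG8G read 8.07, 8.06 and 7.66 in Col and 8.12, 8.14 and 7.98 in hda9-1. Its groups overlapped and its difference was 0.15 (SE 0.13), which shrank to 0.01 without Col replicate 3, the array with the lowest value.

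ATG8H, the only member from the distant group, read 11.62, 11.42 and 11.42 in Col and 11.20, 11.23 and 11.02 in hda9-1. Every mutant array was below every Col array. The difference was −0.34 (SE 0.10), or 1.26-fold higher in Col. ATG8I, the other gene of that group, was measured under its listed name APG8H. Its difference was 0.08 (SE 0.11) and its groups overlapped, so the lower level was that of ATG8H alone.

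The opposite changes of ATG8B and ATG8E can be put on 1 scale by the difference of their log2 values within an array, which is free of what raises or lowers both probe sets together. Relative to its Col mean, the log2 ratio of ATG8E to ATG8B was 0.03, −0.15 and 0.11 in Col replicates 1 to 3 and −1.01, −0.75 and −1.10 in hda9-1 replicates 1 to 3. The ratio was thus lower in every mutant array, by 0.95 on the log2 scale (SE 0.13), or 1.94-fold. For ATG8H over ATG8F the same measure was −0.75, −0.73 and −0.67 in the hda9-1 arrays and −0.15 to 0.09 in the Col arrays, a change of −0.72 (SE 0.08). The SEs of these ratios come from the pooled variance of the 3 arrays per genotype and not from the limma fit. Both ratios join a higher with a lower gene after their values were seen, so their size follows from that choice. They show unequal change between the 2 genes of a pair, and not which of them moved.

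**Figure D2:**
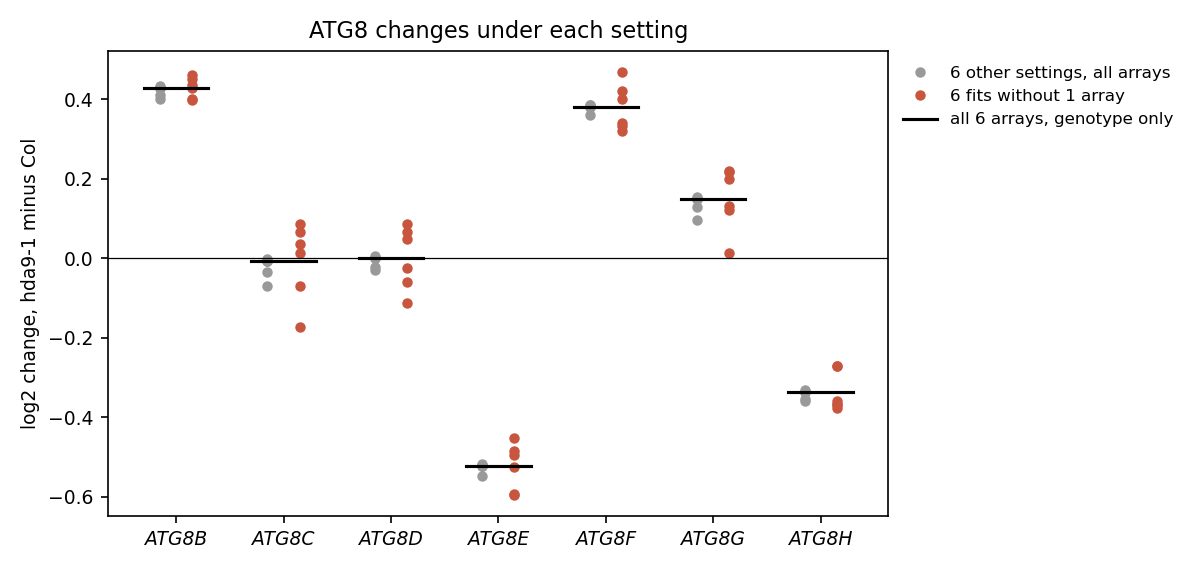
Log2 change (hda9-1 minus Col) of each ATG8 probe set in the fit of all 6 arrays with genotype as the only term (black line), in the 6 other settings with all arrays (grey) and in the 6 fits without 1 array (red). ATG8B and ATG8F stay above 0 and ATG8E and ATG8H below 0 in every fit, whereas ATG8C and ATG8D lie on both sides of 0. The groups of ATG8B, ATG8E, ATG8F and ATG8H do not overlap, so leaving out 1 array cannot change their sign.

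Beside the difference between genotypes, the members shared a pattern across replicates. Replicate 3 had the lowest value of its group for 5 of 7 genes in Col and for 6 of 7 in hda9-1, while over all probe sets it was the lowest in 34.8% and 27.2%. It was the highest of its group for none of the 7 genes in either genotype, and over all probe sets in 38.9% and 43.6%. The exceptions were ATG8E and ATG8H in Col, where replicate 2 was lowest, and ATG8B in hda9-1, where replicate 2 was lowest. The pattern was not particular to the 7 genes. Replicate 3 was also the lowest of both groups for ATG8A, ATG8I and several of the other pathway genes described below. For some others, such as AT5G50230 and AT3G18770, it was the highest of both groups. Averaged over the 7 genes and set against the Col mean, the arrays stood at 0.10, 0.05 and −0.15 in Col and at 0.06, 0.08 and −0.10 in hda9-1, so the family mean of the genotypes overlapped. In Col replicate 3 the control probe sets of actin read 1.58 log2 units more at the 3′ end than at the 5′ end, against 0.96 and 1.03 in the other Col arrays. In hda9-1 replicate 3 the excess was 1.28, against 1.17 and 1.20 in the other mutant arrays. The part of these control values in the low ATG8 values was not tested.

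**Figure D3:**
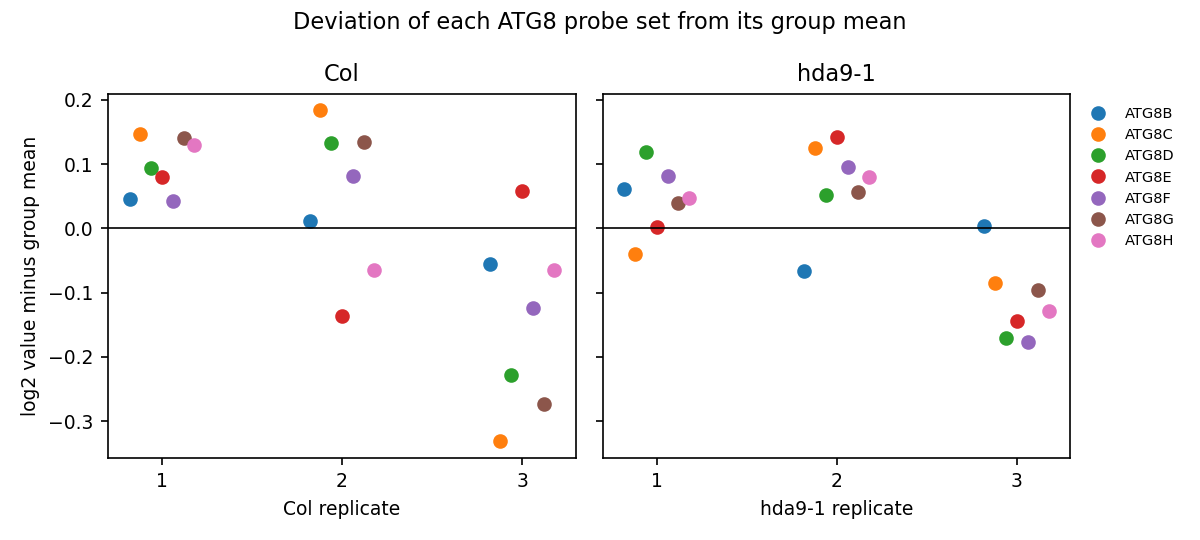
Log2 value of each ATG8 probe set minus the mean of its genotype, by replicate, with Col on the left and hda9-1 on the right; each colour is a gene. In replicate 3 of both genotypes most genes lie below 0, with ATG8C, ATG8G and ATG8D lowest in Col, while ATG8E in Col and ATG8B in hda9-1 do not.

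Likeness between genes was measured as the root mean square difference of log2 values over the 6 arrays, each gene centred on its own mean. This is a description over 6 arrays that share their preparation and their genotype groups. The genotype means were not taken off first. Likeness and unlikeness therefore in part restate the changes between genotypes, also those by which the family was put forward. Among the 13512 other probe sets with a single gene, ATG8F ranked 193 for ATG8B (0.109 log2 units) and ATG8H ranked 78 for ATG8E (0.117 log2 units). ATG8C, ATG8D and ATG8G were within 0.095 log2 units of each other. By contrast ATG8E ranked 12794 for ATG8B, at 0.495 log2 units, where the median probe set was at 0.259. The 5 nearest to ATG8B were AT1G50570, AT1G63190, AT2G43550, AT5G61530 and the plastid gene psbE, at 0.038 to 0.047 log2 units. The 5 nearest to ATG8E were AT5G22620, AT5G15180, AT1G16560, EXPB5 and AT3G27770, at 0.062 to 0.068. The single nearest gene was AT1G32700 for ATG8C, AT2G03270 for ATG8D, AT5G20580 for ATG8F, AT5G23330 for ATG8G and AT2G46360 for ATG8H.

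The order of genes on the chromosomes was taken from assembly TAIR10.1. ATG8E lies next to HAM1 and CDS4, and ATG8G next to HAM2 and CDS5, in the same order. None of these neighbours had a probe set annotated to it alone. The changes of ATG8E and ATG8G were −0.52 (SE 0.11) and 0.15 (SE 0.13), and the part of the neighbourhood in them was not tested. Of the 28 genes that are the nearest 2 on either side of a member, 11 had a probe set with a single gene. In limma none of the 11 passed over all probe sets, and 1 had an unadjusted p under 0.05. That gene was AT3G06410, beside ATG8H, at −0.50 (SE 0.16, limma adjusted p = 0.138). AT4G04630, beside ATG8B, was at −0.09 (SE 0.13, limma adjusted p = 0.787), and AT2G45180, beside ATG8E, at 0.38 (SE 0.27, limma adjusted p = 0.540). Both were dim, with means of 3.54 in Col and 3.45 in hda9-1 for AT4G04630 and 3.81 and 4.19 for AT2G45180. Most of the 11 had means under 5 in both genotypes, while array medians were 5.41 to 5.46. Little can be read from the changes of such dim probe sets. The neighbours were looked up after the values of the members had been seen.

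Few other genes of the autophagy pathway passed the test. Of 70 further genes in the lists, 24 were measured through 26 probe sets, of which 1 was higher, 1 was lower and the rest did not pass, or 7.69% of probe sets against 3.82% of all. Without the list of vacuolar proteases 22 probe sets were left, of which 0 were called higher and 1 lower, or 4.55%. Of the 26 probe sets, 13 had a positive and 13 a negative change, with a median of −0.00. Of the 24, 14 have the locus tag as their symbol in the gene table and are given by it, with no role of their own stated. In the family itself, APG8A (ATG8A) was at −0.22 (SE 0.13, limma adjusted p = 0.417) and APG8H (ATG8I) at 0.08 (SE 0.11, limma adjusted p = 0.764).

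In the conjugation list, which holds the enzymes that process ATG8 and ATG12 and attach them, 3 of 9 genes were measured and none passed in limma, nor at an unadjusted p under 0.05. ATG3, the enzyme that hands ATG8 to its lipid, read 9.19, 8.97 and 8.97 in Col and 8.96, 8.92 and 8.97 in hda9-1, a change of −0.10 (SE 0.09, limma adjusted p = 0.673). The other 2, AT3G59950 and AT5G50230, were at 0.08 and 0.15. In the list of the ATG1 kinase complex, which starts autophagosome formation, 6 of 8 genes were measured and AT3G18770 fell. It read 5.50, 5.36 and 5.59 in Col and 4.91, 4.88 and 4.97 in hda9-1, with no overlap, a change of −0.56 (SE 0.09, limma adjusted p = 0.0243). This call held without Col replicate 2 and was lost without any other single array, with adjusted p from 0.0504 to 0.0979 in those 5 limma fits. The other 5 genes of that list lay between −0.01 for AT3G61960 and 0.14 for AT3G53930, with AT5G66930 at 0.02, AT1G49180 at 0.05 and the 2 probe sets of AT2G37840 at 0.05 and 0.08.

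**Figure D4:**
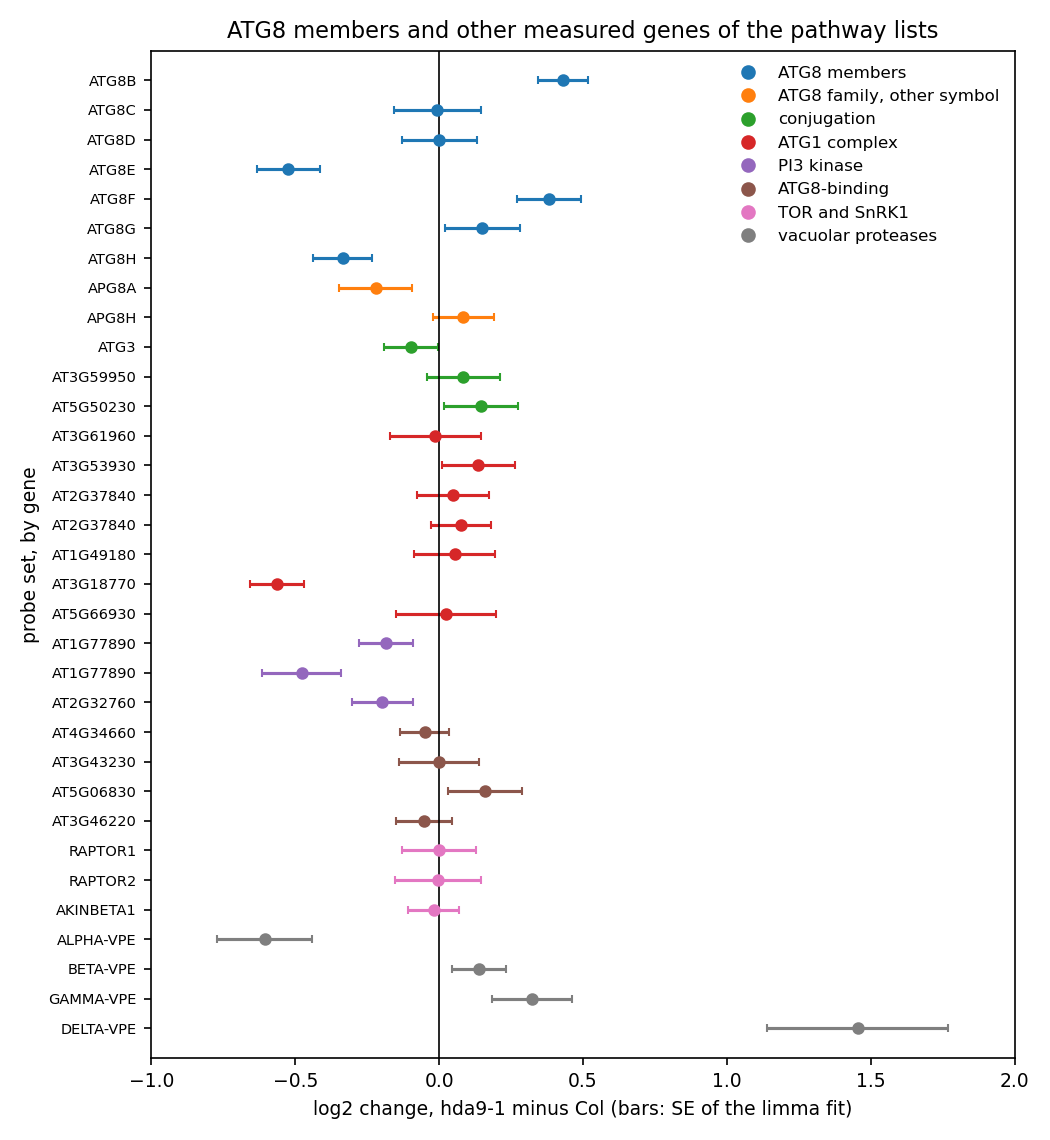
Log2 change (hda9-1 minus Col) with the SE of the limma fit for the 7 ATG8 members and the 26 probe sets of other listed genes, coloured by list. The members spread from −0.52 to 0.43, and the other probe sets from −0.61 for ALPHA-VPE to 1.45 for DELTA-VPE, with AT3G18770 at −0.56 and a probe set of AT1G77890 at −0.48.

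In the list of the phosphatidylinositol 3-kinase complex, which marks the membrane for autophagosome growth, 2 of 6 genes were measured and none passed in limma, with 1 of 3 probe sets at an unadjusted p under 0.05. All 3 probe sets had negative changes. Of the 2 probe sets of AT1G77890 one was at −0.48 (SE 0.14, limma adjusted p = 0.108) and the other at −0.18, and AT2G32760 was at −0.20. Of 4 measured genes in the list of ATG8-binding receptors and adaptors none passed in limma, nor at an unadjusted p under 0.05, with AT5G06830 at 0.16, AT3G46220 and AT4G34660 at −0.05 and AT3G43230 at −0.00. The same held for the 3 measured genes of the list of TOR and SnRK1, kinases that hold autophagy back and promote it, respectively: RAPTOR1 and RAPTOR2, which encode partners of TOR, were at 0.00 (SE 0.13) and −0.00 (SE 0.15), and AKINBETA1, a SnRK1 subunit gene, at −0.02 (SE 0.09). None of the 10 listed genes of ATG2, ATG9 and ATG18, nor ATG5 or HY5, had a probe set annotated to it alone. They were therefore not analysed here. HDA9 was not analysed either and gave no check of the genotype labels.

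In the list of vacuolar proteases 4 of 9 genes were measured. All 4 encode vacuolar processing enzymes, which act where autophagic cargo is broken down. DELTA-VPE, known from the seed coat, read 6.49, 6.11 and 5.20 in Col and 7.64, 7.46 and 7.06 in hda9-1 and rose by 1.45 (SE 0.31, limma adjusted p = 0.0496). All mutant arrays were above all Col arrays, of which replicate 3 was far the lowest. The call was lost with cyclic loess and in every fit without 1 array except that without Col replicate 3. ALPHA-VPE was at −0.61 (SE 0.16, limma adjusted p = 0.0920), and with the replicate number as a block its limma adjusted p was 0.0282. BETA-VPE, the enzyme that processes seed storage proteins, was at 0.14 (SE 0.09, limma adjusted p = 0.511), and GAMMA-VPE at 0.32 (SE 0.14, limma adjusted p = 0.265).

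Markers of the tissues a seed sample can hold were thinly covered. Of 11 storage genes that define the embryo of a ripe seed 2 were measured, PAP85 at 14.16 to 14.28 and OLEO3 at 9.28 to 10.22 over the 6 arrays, and none passed in limma, with 1 of them at an unadjusted p under 0.05. PAP85 was at 0.02 (SE 0.08) and OLEO3 at −0.61 (SE 0.16, limma adjusted p = 0.0805, or 0.0291 with the replicate number as a block). Their mean per array was 12.00 to 12.19 in Col and 11.77 to 11.94 in hda9-1. Of 5 seed coat genes 2 were measured, with a mean per array of 6.64 to 6.73 in Col and 6.81 to 7.04 in hda9-1, and none passed in limma, with 1 of them at an unadjusted p under 0.05. BAN was at 0.10 (SE 0.10) and ARA12 at 0.31 (SE 0.10, limma adjusted p = 0.157). The 1 measured endosperm gene of 4, AGL62, read 3.11 to 3.73 in Col and 3.38 to 3.59 in hda9-1 and did not pass. AGL62 and BAN (means of 4.34 in Col and 4.44 in hda9-1) were dim beside array medians of 5.41 to 5.46. Little can be read from their changes. Of 6 genes of the silique wall 2 were measured, with a mean of 9.37 to 9.65 in Col and 9.34 to 9.57 in hda9-1, and they differed in sign. ADPG1, a polygalacturonase gene of pod opening, fell (−0.51, SE 0.10, limma adjusted p = 0.0399), and ALC, a regulator gene of pod opening, was at 0.39 (SE 0.18, limma adjusted p = 0.285) and higher in all 3 hda9-1 arrays than in any Col array. The means of the storage and the seed coat genes did not overlap between the genotypes, though in each pair 1 of the 2 genes overlapped (PAP85 and BAN), and their part in the ATG8 differences was not tested. In such samples fewer cells of a type and less RNA per cell cannot be told apart.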

How the data were processed

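Per the labels, biotin-labelled cRNA made from total RNA of 3 Col and 3 hda9-1 seed samples was measured on Affymetrix ATH1 arrays. The authors deposited 1 table of log2 values; RMA, affy and limma are named in the submitters' processing notes, without versions or settings. RMA sets the distributions of the arrays equal, so a shift of most transcripts one way would not be seen. Array medians were 5.41 to 5.46. Of 22810 probe sets, 64 controls were left out. Of the rest, 13513 had 1 listed gene, 503 had several and 8730 had none, and 13436 names were brought up to date by Entrez identifier from the TAIR10.1 gene table. The build behind the array's annotation is not given in the sources used here, so only names and the order of genes were taken from TAIR10.1, and no coordinates.

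All 6 arrays entered 1 limma fit (limma 3.58.1, R 4.3.3) whose single term was genotype. The same fit was also run on simulated data, in which arrays did not share a replicate effect. P-values were adjusted by Benjamini-Hochberg over all 22746 probe sets. Alternatives were the replicate number as a block, trend and robust eBayes, median centring, cyclic loess, a filter at a mean log2 value of 5, array weights, and leaving out each array. After the group means were taken off, arrays of the same number correlated across probe sets with r of 0.34, 0.21 and 0.21, over the limit of 0.1, and arrays of different numbers with r of −0.35 to 0.09. On these data alone, equal numbers could be pairs, so the replicate number was also fitted as a block. The main fit kept genotype as its only term, so its SEs and p-values are not paired. The rule for named genes took the members, the measured genes of the lists and the 5 probe sets nearest to each member, of which the text gives all 5 for ATG8B and ATG8E and the first for the others. Flanking genes were added after the members' values were seen. The members and the lists were chosen with earlier results of these data known.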

Additional observations from a re-analysis of the deposited data

How the results depend on the processing

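The members' changes moved by less than 1 SD between replicates in all 12 alternatives, and none of the called genes changed sign. Most of this was fixed in advance. The replicate block, trend and robust eBayes and the filter leave a change as it is. Leaving out 1 of 3 arrays cannot move it by 1 such SD, nor reverse it where the groups do not overlap. Only median centring, cyclic loess and array weights could have shown otherwise. ATG8C and ATG8D, which were near 0, lay on both sides of it. The counts of calls were less stable, and the cause was not tested. ATG8 genes called higher went from 1 to 0 with trend and robust eBayes and to 0 in each of the fits without 1 array. ATG8 genes called lower went from 1 to 0 with the replicate number as a block and with median centring, and were 0 to 1 without 1 array. Of the other pathway genes, the 1 called higher was lost after cyclic loess (0), and 2 were called lower with the replicate block or with array weights, where ALPHA-VPE was added. Without 1 array these counts were 0 to 1 in both directions. Over all probe sets 312 were higher and 558 lower, against 625 and 828 with the replicate block and 623 and 873 with array weights. Without 1 array 23 to 382 were higher and 69 to 452 lower. The replicate block changed the call of ATG8E and ALPHA-VPE and of no other member or pathway gene. With 3 arrays per genotype, each array carries much of every value, and arrays give no depth.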
